A study of Mus musculus with 25 samples.

Results

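The atrophy programme of muscle was followed here through 10 genes in the *soleus* of mice killed at rest or 60 minutes after treadmill running. They are the ubiquitin ligase genes *Fbxo32* and *Trim63*, the transcription factor genes *Foxo1*, *Foxo3* and *Foxo4*, and the autophagy genes *Ulk1*, *Map1lc3b*, *Gabarapl1*, *Sqstm1* and *Bnip3*. The members were chosen by name, and all 10 were found among the 52636 genes of the count table. All 10 also passed the filter on low counts, which left 16340 genes for the tests. The mice were 12 weeks old, of both sexes and of the C57BL/6 strain background. Every mouse, controls included, carried Dnmt3a flox/flox alleles. WT mice had no Cre, and mD3AKO mice (KO in the labels) carried the mCK-Cre transgene, in which the promoter of muscle creatine kinase drives Cre in skeletal and heart muscle, late in the differentiation of skeletal muscle, so that satellite cells and other cells of the muscle are likely to keep the DNA methyltransferase *Dnmt3a*. The groups held 5 WT and 7 mD3AKO mice at rest, which had been placed on a sham treadmill, and 7 WT and 6 mD3AKO mice 60 minutes after 1 bout of running. Females were 2 of the 5 WT and 3 of the 7 mD3AKO mice at rest. After exercise they were 4 of the 7 WT and 3 of the 6 mD3AKO mice.

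Skeletal muscle breaks down protein by 2 main routes. In the ubiquitin-proteasome route, ligases mark a protein for the proteasome. *Fbxo32* encodes atrogin-1 (MAFbx), the substrate-binding part of an SCF ligase, and *Trim63* encodes MuRF1, a RING ligase of the sarcomere, and the mRNA of both is widely used as a sign of muscle wasting. In autophagy, a membrane grows around cytoplasm or organelles and is delivered to the lysosome. FoxO transcription factors can switch on genes of both routes, and insulin signalling through AKT keeps them out of the nucleus by phosphorylation, so that the mRNA of a FoxO gene does not by itself report the activity of its protein.

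The counts cover the exons of whole genes, in the coordinates of mm10. The ligase genes lie apart, *Fbxo32* at chr15:58175879-58214892 on the minus strand and *Trim63* at chr4:134315120-134329629 on the plus strand. Of the FoxO genes, *Foxo1* at chr3:52268336-52353221 and *Foxo4* at chrX:101254528-101260873 are on the plus strand and *Foxo3* at chr10:42181841-42276755 on the minus strand. Of the autophagy genes, *Map1lc3b* at chr8:121590361-121598760 and *Gabarapl1* at chr6:129533160-129542346 are on the plus strand, and *Ulk1* at chr5:110784488-110810097, *Sqstm1* at chr11:50199366-50210827 and *Bnip3* at chr7:138890836-138909519 on the minus strand.

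The promoters of the 2 members with the largest difference after exercise are shown, since both genes rose after exercise. A RefSeq promoter (GRCm38.p6) was matched by symbol for 8 of the 10 genes. *Fbxo32* and *Foxo4* were not matched. The 250 bases before the annotated start of *Trim63* lie at chr4:134314870-134315119 on the plus strand, and those of *Foxo1* at chr3:52268087-52268336 on the plus strand. They read 5′ to 3′ as follows, with capitals for a match to a glucocorticoid receptor motif followed directly by a match to a FoxO motif.
Trim63: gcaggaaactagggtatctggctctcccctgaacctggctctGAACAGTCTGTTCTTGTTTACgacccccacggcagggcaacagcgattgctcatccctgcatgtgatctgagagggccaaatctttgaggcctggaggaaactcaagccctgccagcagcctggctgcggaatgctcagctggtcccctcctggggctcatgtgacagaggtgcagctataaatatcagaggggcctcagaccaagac
Foxo1: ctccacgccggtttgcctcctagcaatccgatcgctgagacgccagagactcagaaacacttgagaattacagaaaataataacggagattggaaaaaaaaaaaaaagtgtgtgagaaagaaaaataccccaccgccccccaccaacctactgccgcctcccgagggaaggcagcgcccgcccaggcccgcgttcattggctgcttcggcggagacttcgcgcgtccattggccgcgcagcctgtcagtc

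The motif letters GAACANNNTGTTC (the palindrome bound by the glucocorticoid receptor) and GTAAACAA (a FoxO binding motif, TTGTTTAC on the other strand) were searched on both strands of the windows from 250 bases before to 50 bases after each start. In *Trim63* the first lay at positions -208 to -196 and the second at -195 to -188 relative to the start, so that they touch without overlap. The glucocorticoid receptor motif was held by 19 of 32851 promoters in the RefSeq table (0.0578%) and the FoxO motif by 403 (1.23%). The shorter FoxO letters GTAAACA, which the longer motif contains, were held by 1199 promoters (3.65%). Of the 8 member promoters, *Trim63* alone held any of these 3 motifs, and *Foxo1* held none in this window. The CREB motif TGACGTCA was in 588 promoters (1.79%) and the TFEB motif CACGTGAC in 738 (2.25%), and 0 of the 8 members held either. The E-box CACGTG, which the TFEB motif contains, was in 2349 promoters (7.15%) and in *Bnip3*, at positions -108 to -103. These are matches of letters and not measured binding.

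The libraries held between 22671457 and 37431801 counts on genes (median 32189360). The lowest count of any member in any library was 254 reads, for *Foxo1*. The genotype labels were checked with *Dnmt3a*, which lay between 93.4 and 130.5 CPM (counts relative to the size of the library, after TMM scaling for its composition) in the 12 WT and between 34.5 and 53.9 CPM in the 13 mD3AKO mice, without overlap. Markers of muscle fibers made up at least 71363 CPM in each library. The mD3AKO mouse 15, at rest, stood apart, with 39.5% of its counts on 3 genes of ribosomal RNA. In the other 24 mice this share was 7.75% to 13.0%. Without this mouse *Foxo1*, *Trim63* and *Foxo3* passed the threshold for exercise (log2 differences 1.27, 0.73 and 0.49), and the other 7 members did not. These 7 were then at -0.13 (*Fbxo32*), 0.06 (*Foxo4*), 0.10 (*Bnip3*), 0.0048 (*Ulk1*), 0.08 (*Map1lc3b*), 0.13 (*Sqstm1*) and 0.40 (*Gabarapl1*, adjusted p 0.057 in edgeR's test).

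**Figure D1:**
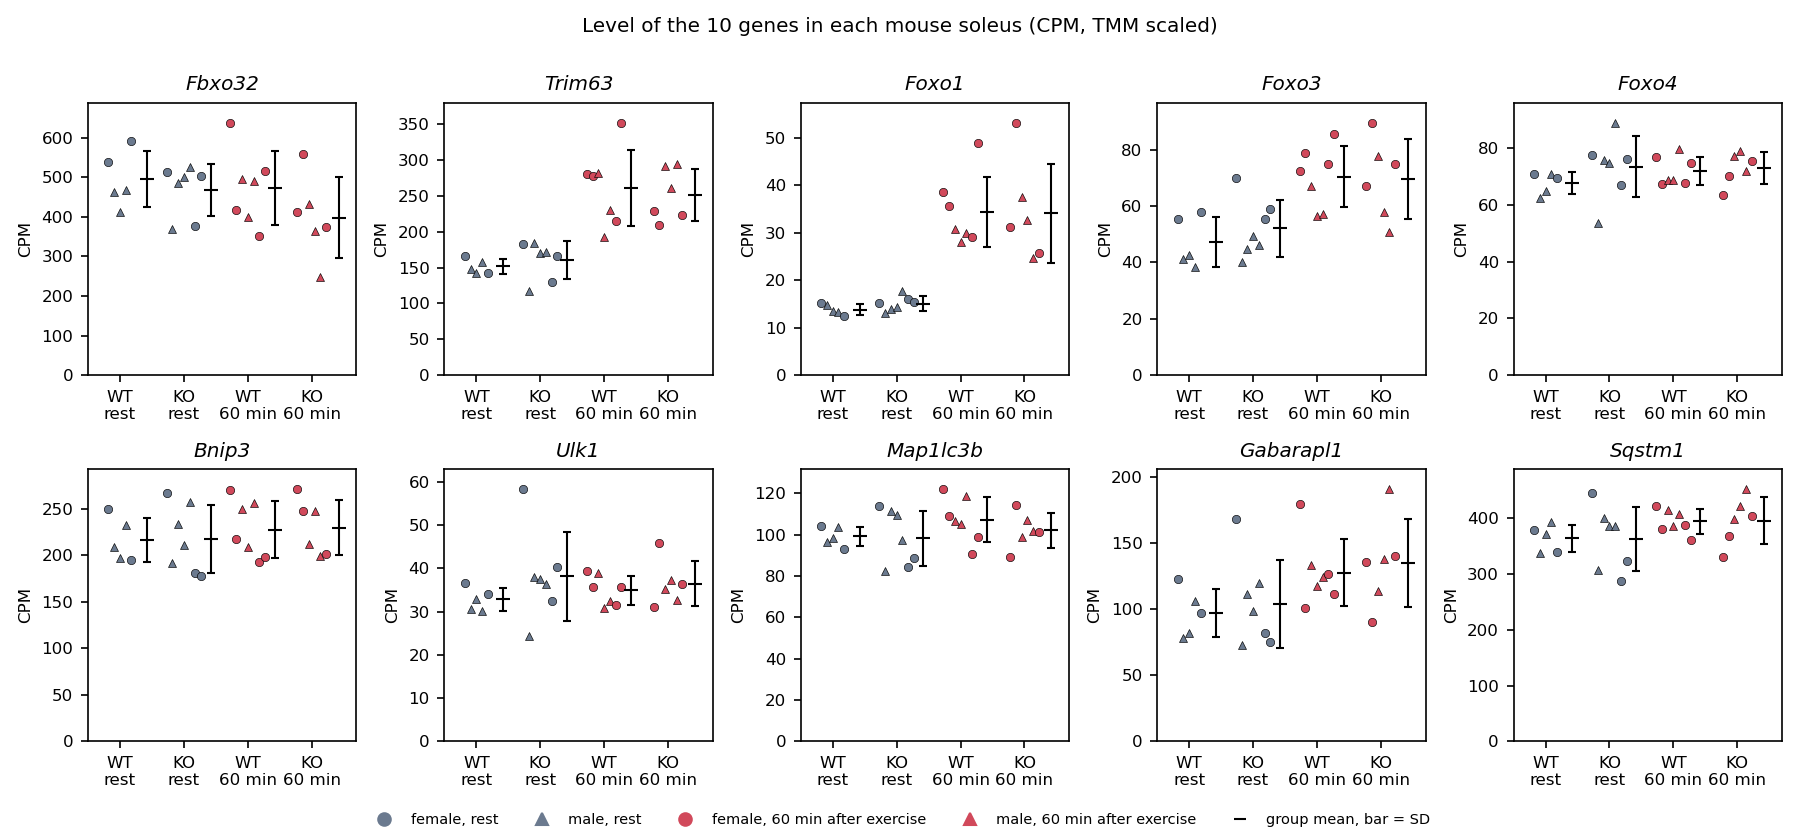
CPM of the 10 genes (vertical axes, from 0) in each of the 25 mice, by genotype and exercise; circles are females, triangles males, and the dash with its bar is the group mean with the SD. The points of *Trim63* and *Foxo1* after exercise all lie above all points at rest, and the other 8 genes overlap between rest and exercise.

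Exercise raised 3 of the 10 genes and lowered 0 of them at an adjusted p under 0.05 (edgeR's quasi-likelihood F test, main effect of exercise averaged over the genotypes, Benjamini-Hochberg adjustment over 16340 genes). Among all tested genes 932 were higher (5.7%) and 767 lower (4.69%). *Foxo1* rose 2.38-fold, *Trim63* 1.64-fold and *Foxo3* 1.41-fold. The median log2 difference over the 10 members was 0.10, and over all tested genes it was -0.00088. In whole muscle, less RNA of a gene per cell and fewer cells that hold it cannot be told apart.

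*Trim63* was the ligase gene that responded. At rest the WT mice were at 143, 143, 148, 158 and 166 CPM, and the mD3AKO mice between 118 and 184 CPM (median 170). After exercise the WT mice were between 192 and 352 CPM (median 278) and the mD3AKO mice between 209 and 294 CPM (median 245). Each of the 13 exercised mice was above each of the 12 rested mice, a separation in this direction that 125 of all tested genes showed (0.765%). The log2 difference was 0.72 ± 0.09 (SE), with an adjusted p of 2.2e-06 in edgeR's test and a 95% interval from 0.53 to 0.90. Without mouse 15 it was 0.73.

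*Fbxo32*, its partner in the usual pair of atrophy markers, did not pass the test. At rest the WT mice were at 411, 463, 468, 538 and 592 CPM, and the mD3AKO mice between 370 and 525 CPM (median 501). After exercise the WT mice lay between 351 and 637 CPM (median 490) and the mD3AKO mice between 247 and 559 CPM (median 393). The rested mice lie inside the range of the exercised mice, which hold both the highest value (WT mouse 4) and the lowest (mD3AKO mouse 19). Exercised minus rested mice gave a log2 difference of -0.15 ± 0.11 (SE) with an adjusted p of 0.48 in edgeR's test. Its 95% interval from -0.37 to 0.07 lies below the interval of *Trim63*.

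The ratio of *Trim63* to *Fbxo32* reads within a library does not depend on the scaling of the libraries. This ratio was added after the values of both genes had been seen, and it is given without a test. At rest it was 0.241, 0.309, 0.319, 0.337 and 0.348 in WT mice and between 0.319 and 0.381 (median 0.339) in mD3AKO mice. After exercise it was between 0.439 and 0.681 (median 0.568) in WT and between 0.375 and 1.19 (median 0.636) in mD3AKO mice. Of the 13 exercised mice, 12 had a higher ratio than every rested mouse. The exception was mD3AKO mouse 6, at 0.375, and mD3AKO mouse 19 alone held more reads of *Trim63* than of *Fbxo32*.

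**Figure D2:**
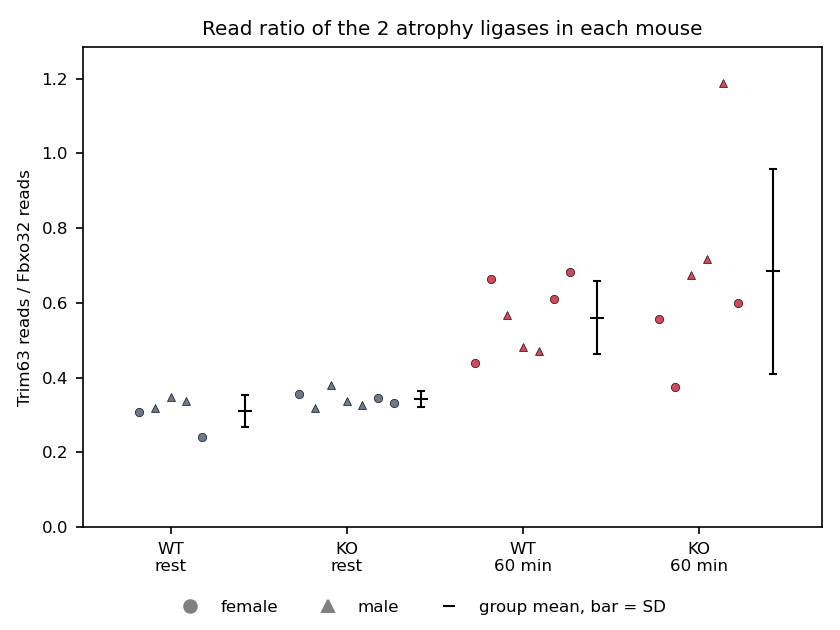
Ratio of Trim63 reads to Fbxo32 reads (vertical axis, from 0, no unit) in each mouse by group; circles are females, triangles males, and the dash with its bar is the group mean with the SD. The rested mice lie between 0.241 and 0.381, and 12 of 13 exercised mice lie above that range.

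*Foxo1*, the lowest of the 10 genes per length of transcript, had the largest response. At rest the WT mice were at 12.4, 13.3, 13.4, 14.7 and 15.1 CPM, and the mD3AKO mice between 13.1 and 17.8 CPM (median 15.1). After exercise the WT mice lay between 28.1 and 48.8 CPM (median 30.7), and the mD3AKO mice between 24.7 and 53.1 CPM (median 31.9). Again each of the 13 exercised mice was above each rested mouse. The spread in CPM widened along with the mean of *Foxo1*. At rest the SD was 1.46 CPM around a mean of 14.5 (n = 12), and after exercise 8.51 CPM around 34.3 (n = 13). Its log2 difference was 1.25 ± 0.11 (SE) with an adjusted p of 3.1e-09 in edgeR's test, and 1.27 without mouse 15. *Foxo1* encodes the FoxO factor that also drives gluconeogenic genes in liver.

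*Foxo3*, the family member most often tied to muscle wasting, rose less. At rest the WT mice were at 38.5, 41.3, 42.8, 55.5 and 57.9 CPM, and the mD3AKO mice between 40.1 and 69.9 CPM (median 49.3). After exercise the WT mice lay between 56.4 and 85.6 CPM (median 72.3) and the mD3AKO mice between 50.7 and 89.4 CPM (median 71.0). The groups overlapped, and 7 of the 13 exercised mice were above every rested mouse, while all 13 were above the median of the rested mice. On the log2 scale this was a difference of 0.50 ± 0.10 (SE) with an adjusted p of 0.0012 in edgeR's test, and 0.49 without mouse 15. This fit had no term for sex. The rested mice were 5 females and 7 males and the exercised mice 7 females and 6 males, and *Foxo3* was higher in females.

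*Foxo4*, on the X chromosome, lay between 53.7 and 88.8 CPM at rest and between 63.6 and 79.7 CPM after exercise. The exercised mice lay inside the range of the rested mice, whose highest value was that of mouse 15. Its log2 difference of 0.04 ± 0.06 (SE) had a 95% interval from -0.08 to 0.16, which ends below the start of the intervals of *Foxo1* and *Foxo3*.

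Of the 5 autophagy genes, 0 passed the threshold in edgeR's test, and DESeq2 called *Gabarapl1*. *Gabarapl1*, an ATG8 protein that is attached to the growing membrane, came nearest. At rest the WT mice were at 78.2, 81.9, 97, 106 and 123 CPM, and the mD3AKO mice between 73.3 and 168 CPM (median 98.6). After exercise the WT mice lay between 101 and 179.6 CPM (median 124) and the mD3AKO mice between 90.5 and 191 CPM (median 137). 12 of the 13 exercised mice were above the median of the rested mice, but the rested mD3AKO mouse 2, at 168 CPM, was above 11 of them. The log2 difference was 0.38 ± 0.13 (SE), 1.30-fold, with an adjusted p of 0.060 in edgeR's test and 0.037 in DESeq2. In edgeR it passed the threshold in the fits without WT mouse 1 (0.43, adjusted p 0.039), without mD3AKO mouse 2 (0.46, adjusted p 0.0091), without WT mouse 5 (0.41, adjusted p 0.0496) and without mD3AKO mouse 6 (0.42, adjusted p 0.032). In males alone it was 0.51 (adjusted p 0.039) and in females alone 0.20 (adjusted p 0.88).

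*Map1lc3b*, which encodes LC3B, the most used marker of autophagosomes, lay between 82.2 and 114 CPM at rest and between 89.1 and 122 CPM after exercise. The log2 difference was 0.08 ± 0.06 (SE). *Sqstm1* encodes p62, the receptor that links ubiquitin-marked cargo to the membrane and is itself degraded with it. It lay between 287 and 445 CPM at rest and between 330 and 451 CPM after exercise, with a log2 difference of 0.12 ± 0.06 (SE) and an adjusted p of 0.28 in edgeR's test. For both genes the 2 ranges largely coincide. Of the 13 exercised mice, 11 for *Map1lc3b* and 10 for *Sqstm1* were above the median of the rested mice.

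*Ulk1*, the kinase that starts autophagy, lay between 24.3 and 58.3 CPM at rest and between 30.9 and 46.0 CPM after exercise. Its log2 difference was 0.01 ± 0.09 (SE), with a 95% interval from -0.18 to 0.20. *Bnip3*, a receptor on the outer mitochondrial membrane that marks mitochondria for autophagy, lay between 177 and 267 CPM at rest and between 193 and 271 CPM after exercise. The log2 difference was 0.08 ± 0.08 (SE) with an interval from -0.08 to 0.24. The intervals of *Ulk1*, *Bnip3*, *Map1lc3b* and *Sqstm1* end between 0.20 and 0.25, so that a rise of the size of that of *Foxo3* lies outside them.

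**Figure D3:**
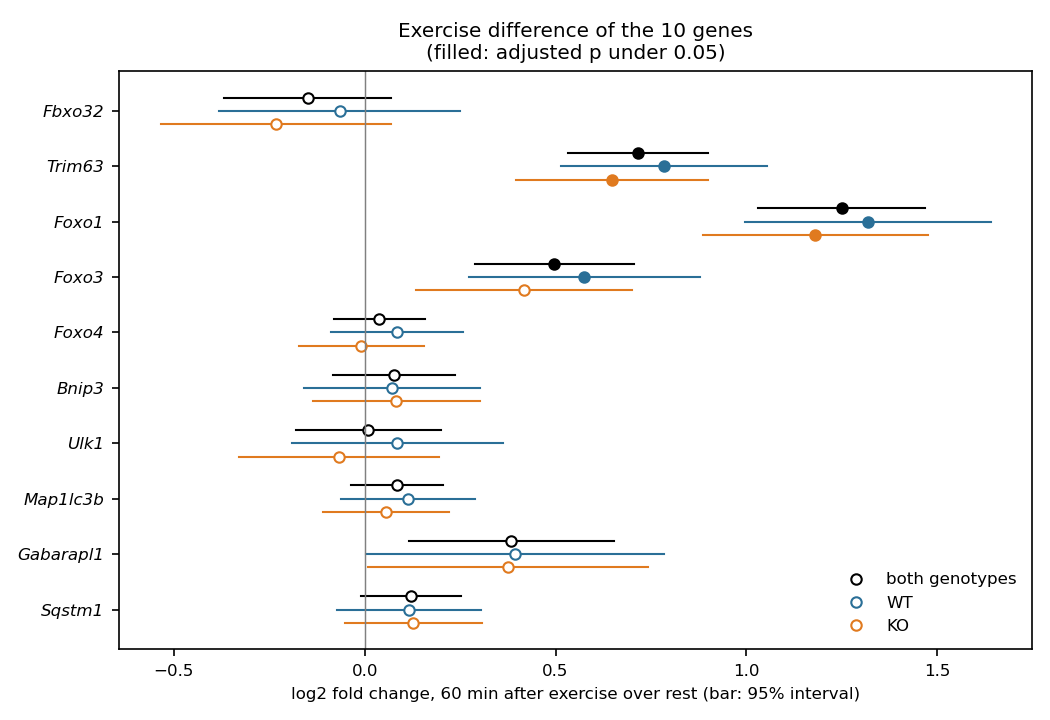
Log2 fold change between mice 60 minutes after exercise and mice at rest (horizontal axis) for the 10 genes, as the main effect over both genotypes (black), in WT (blue) and in mD3AKO mice (orange); bars are 95% intervals and filled points have an adjusted p under 0.05. *Foxo1* and *Trim63* are filled in all 3 estimates, and the intervals of WT and mD3AKO mice overlap for each gene.

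The comparison of WT with mD3AKO mice asks whether the response to exercise depends on *Dnmt3a*. In WT mice *Foxo1* (1.32, adjusted p 3.4e-06), *Trim63* (0.79, adjusted p 0.00035) and *Foxo3* (0.58, adjusted p 0.023) rose by edgeR's test, on a background of 353 genes called higher (2.16%). In mD3AKO mice *Foxo1* (1.18, adjusted p 3.1e-06) and *Trim63* (0.65, adjusted p 0.0010) rose, on a background of 604 genes (3.7%), and *Foxo3* was at 0.42 with an adjusted p of 0.075. The interaction of genotype and exercise passed the threshold for 0 of the 10 members and for 0 of all tested genes (0%). At an unadjusted p under 0.05 the interaction gave 0 members and 403 genes, and DESeq2 also called 0 genes. For *Foxo3* the difference between the genotypes in the response was -0.16 ± 0.20 (SE) on the log2 scale, with a 95% interval from -0.57 to 0.26. It ranged from -0.24 (without WT mouse 20) to -0.070 (without mD3AKO mouse 2) when 1 mouse was left out. The interval of *Gabarapl1* was the widest, from -0.55 to 0.52, and that of *Foxo4* the narrowest, from -0.33 to 0.14.

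The *Foxo3* call within each genotype changed with single mice and with the model. In WT mice, at a log2 difference of 0.58 with all mice, it was lost in 4 of the 25 fits without 1 mouse. These left out the rested mouse 11 (0.53, adjusted p 0.075 in edgeR's test), 13 (0.55, 0.071) or 14 (0.51, 0.094), or the exercised mouse 25 (0.52, 0.054). It was also lost with total counts in place of TMM (log2 difference 0.57, adjusted p 0.16). The settings of this paragraph other than leaving out 1 mouse were added within the genotypes after the data were seen. In mD3AKO mice it was reached without the rested mouse 2 (adjusted p 0.023) or the exercised mouse 19 (0.036). With sex as an additive term *Foxo3* passed in both genotypes, at 0.51 ± 0.09 (SE, adjusted p 0.00073) in WT and 0.40 ± 0.09 (0.0034) in mD3AKO mice by edgeR's test. It also did so with blocks of mouse numbers (adjusted p 0.00084 and 0.0046) and with 8 groups that include sex (0.0022 and 0.0078). These 3 models all adjust for sex, since the females are mice 1 to 6 and 20 to 25 and the males mice 7 to 19, so they are not separate support. Within 1 sex, with fewer mice, *Foxo3* passed in neither genotype by edgeR's test. In males it was at 0.55 (adjusted p 0.075) in WT and 0.45 (0.070) in mD3AKO mice. In females it was at 0.45 (0.18) in WT and 0.33 (0.37) in mD3AKO mice. *Foxo1* and *Trim63* passed the threshold within both genotypes in each of the 25 fits that left out 1 mouse. Within 1 sex *Trim63* did not pass in WT males (0.64, adjusted p 0.076) or in mD3AKO females (0.46, adjusted p 0.37), while *Foxo1* passed within both genotypes in each sex.

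A difference between the genotypes was not detected for any of the 10 genes. The main effect of genotype passed the threshold for 0 members by edgeR's test, while it did so for 44 of all tested genes (0.269%), and 0 members had an unadjusted p under 0.05, beside 6.23% of all tested genes. Counts of 0 among 10 genes are near these shares. The largest difference was that of *Fbxo32*, lower in mD3AKO mice by a log2 difference of -0.16 ± 0.11 (SE), followed by *Ulk1*, higher by 0.14 ± 0.09 (SE). The latter was 0.070 without the rested mD3AKO mouse 2 and up to 0.18 in the other fits that left out 1 mouse. The 95% intervals bound the difference of *Sqstm1* between -0.13 and 0.13 and that of *Map1lc3b* between -0.16 and 0.08. At rest alone and after exercise alone 0 members passed as well, where 15 (0.0918%) and 18 (0.11%) of all tested genes did, with the lowest unadjusted p at 0.12 for *Ulk1* at rest and 0.10 for *Fbxo32* after exercise.

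*Foxo3* was the member that differed between the sexes. The 5 rested females were at 55.2, 55.5, 57.9, 58.9 and 69.9 CPM and the 7 rested males between 38.5 and 49.3 CPM (median 42.8), without overlap. Of all tested genes 203 (1.24%) had each rested male below each rested female, and *Foxo3* was the one member among them. After exercise the 7 females lay between 67.2 and 89.4 CPM (median 74.9) and the 6 males between 50.7 and 77.6 CPM (median 57.5), and here the male mD3AKO mouse 10 reached into the female range. Averaged over the 4 groups, *Foxo3* was lower in males by a log2 difference of -0.40 ± 0.07 (SE), 0.758-fold, with an adjusted p of 0.00050 in edgeR's test. Among all tested genes 1413 differed by sex (8.65%), and among the 10 members this was 1. Over the same mice 3 of the 10 muscle fiber markers were lower in males, namely *Myh7*, the slow myosin (-0.51 ± 0.08), *Tnni1* (-0.40 ± 0.07) and *Tnnt1* (-0.37 ± 0.07). The 4 that were higher were *Myh1* (0.49 ± 0.15) and *Myh2* (0.30 ± 0.08), which encode fast myosins, the creatine kinase gene *Ckm* (0.30 ± 0.08) and the myoglobin gene *Mb* (0.26 ± 0.07). Their part in the *Foxo3* difference was not tested.

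**Figure D4:**
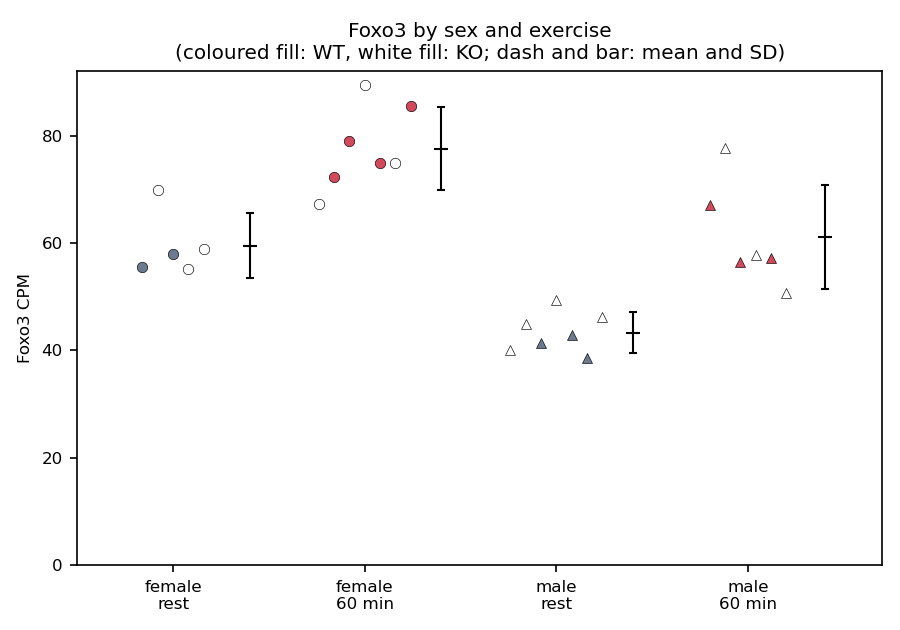
*Foxo3* CPM (vertical axis, from 0) in each mouse by sex and exercise; coloured symbols are WT and white symbols mD3AKO mice, and the dash with its bar is the mean with the SD. At rest the 5 females (55.2 to 69.9 CPM) lie above the 7 males (38.5 to 49.3 CPM), and both sexes are higher after exercise.

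The rise of *Foxo3* after exercise was 0.50 ± 0.09 (SE) in males alone and 0.39 ± 0.09 in females alone, with adjusted p of 0.0048 and 0.030 in edgeR's test. *Foxo1* and *Trim63* also passed within each sex, with 1.10 and 0.72 in males and 1.35 and 0.66 in females. The interaction of sex and exercise passed the threshold for 0 members, and for 9 of all tested genes (0.0551%). The largest estimates were those of *Gabarapl1*, whose response was higher in males by 0.32 ± 0.27 (SE), and of *Foxo1*, whose response was lower in males by a log2 difference of -0.25 ± 0.21 (SE).

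Marker genes of other cell types were summed beside the exercise result. The 7 endothelial markers summed to between 381 and 520 CPM at rest (median 455) and between 326 and 431 CPM after exercise (median 368). Of these 7 genes, 5 were lower after exercise and 0 higher, beside 4.69% lower and 5.7% higher among all tested genes. *Kdr*, a receptor of VEGF, was at -0.58 ± 0.07 (SE), while *Pecam1* (-0.09 ± 0.05) and *Vwf* (-0.03 ± 0.12) did not pass. Of the 4 satellite cell markers 2 were lower, *Pax7* and *Myf5*, and the sum lay between 31.3 and 38.1 CPM at rest and between 26.6 and 32.9 CPM after exercise. The markers of muscle fibers, immune cells, adipocytes, fibroblasts, Schwann cells and blood had 0 genes past the threshold for exercise. The part of the endothelial and satellite cells in the rises of *Foxo1*, *Trim63* and *Foxo3* was not tested.

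**Figure D5:**
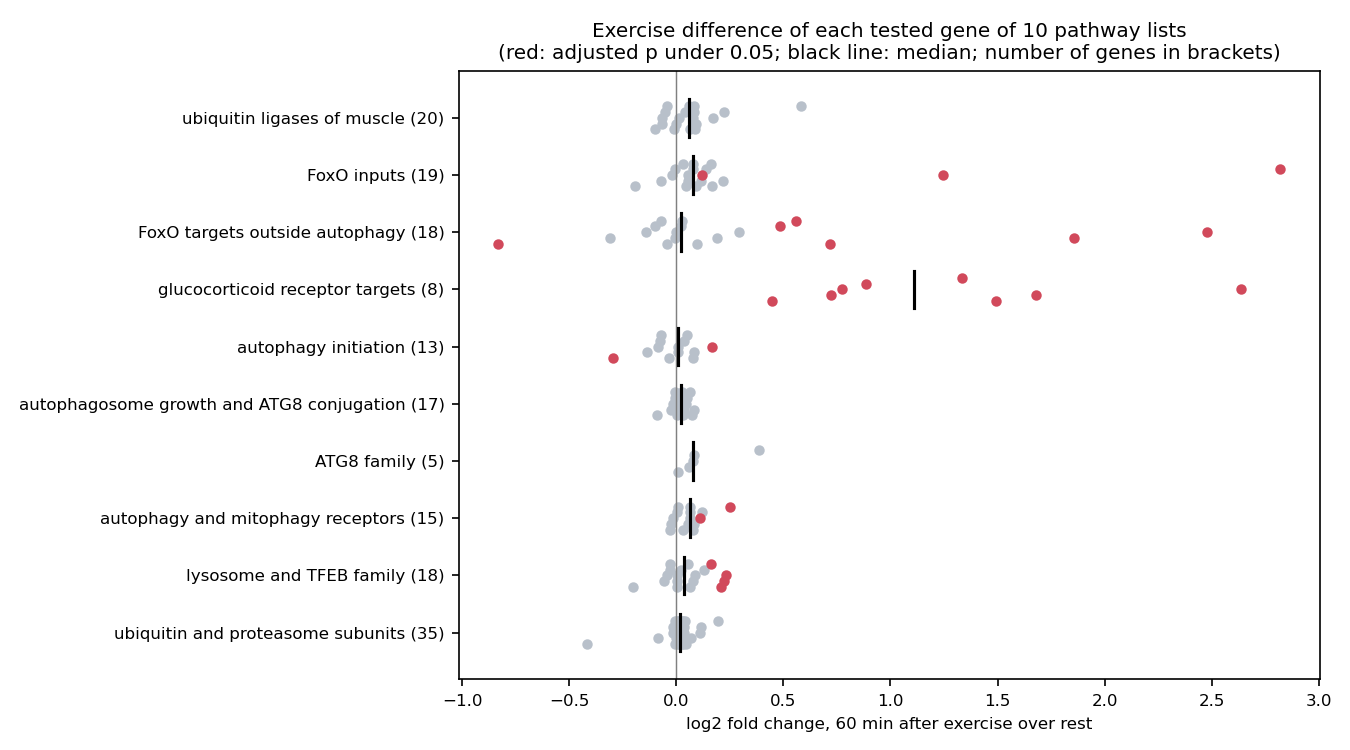
Log2 fold change between mice 60 minutes after exercise and mice at rest (horizontal axis) of each tested gene in 10 lists of related genes; red points have an adjusted p under 0.05, the black line is the median of the list and the number of genes is in brackets. The 8 glucocorticoid receptor targets all lie to the right of 0 in red, and the 35 ubiquitin and proteasome genes have no red point. The lists were chosen with earlier results of these data known.

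Of 19 genes of insulin signalling, deacetylation and related factors, other forkhead factors among them, 3 rose and 0 fell (median log2 difference 0.08). Among all tested genes 5.7% were higher and 4.69% lower. *Irs2*, the adaptor that carries the insulin signal to PI3-kinase, had a mean of 30.7 CPM with an SD of 6.88 in the 12 rested mice. In the 13 exercised mice its mean was 215 CPM with an SD of 73.7, and the log2 difference was 2.82 ± 0.18 (SE). *Sgk1*, a kinase related to AKT that can also phosphorylate FoxO, rose by 1.24 ± 0.13 and the forkhead factor *Foxk2* by 0.12 ± 0.04. *Akt1* (0.09 ± 0.04) and *Akt2* (0.08 ± 0.04) did not pass the threshold.

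Of 18 genes known as FoxO targets outside autophagy, 5 rose and 1 fell, with a median of 0.02. Among all tested genes 5.7% were higher and 4.69% lower. The part of FoxO factors in these differences was not tested. *Ddit4*, an inhibitor of mTORC1, rose by 2.48 ± 0.18 (SE), the transcription factor *Cebpd* by 1.86 ± 0.16 and *Klf15*, a regulator of amino acid breakdown, by 0.48 ± 0.09. The transcriptional coregulator *Cited2* fell, at -0.83 ± 0.14. *Pdk4*, the kinase that inhibits pyruvate dehydrogenase and a much used FoxO target in muscle, was at 0.10 ± 0.28 and did not pass.

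The 8 glucocorticoid receptor targets all rose, with a median log2 difference of 1.11, beside 5.7% higher among all tested genes. This list was chosen with earlier results of these data known, and the part of glucocorticoid signalling in these rises was not tested. The metallothioneins *Mt2* and *Mt1* rose by 2.64 ± 0.29 (SE) and 1.68 ± 0.16, *Tsc22d3*, which encodes the glucocorticoid-induced leucine zipper, by 1.33 ± 0.08, and the transcription factor *Zbtb16* by 0.77 ± 0.09.

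Of 20 other ubiquitin ligases and related genes of muscle, 0 passed the threshold, with a median of 0.06. Among all tested genes 5.7% were higher and 4.69% lower. *Zfand5*, a ubiquitin-binding protein kept in this list, came nearest at 0.22 ± 0.07 (SE) and an adjusted p of 0.058 in edgeR's test. *Klhl40* had a larger estimate, 0.58 ± 0.20, with an adjusted p of 0.067 in the same test. Of the 35 genes of ubiquitin and proteasome subunits 0 passed (median 0.02), beside the same shares of all tested genes.

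The 5 autophagy lists, which also hold the 5 autophagy members, have 68 genes, of which 7 rose (10.3%) and 1 fell (1.47%), beside 5.7% higher and 4.69% lower among all tested genes. Their median log2 difference was 0.03. Among 13 genes of the ULK and VPS34 complexes, *Ambra1* rose (0.17 ± 0.04, SE) and *Nrbf2* fell (-0.30 ± 0.07), and the median was 0.01. Of 17 genes of membrane growth and ATG8 conjugation 0 passed, the nearest being the protease *Atg4b* at 0.08 ± 0.04, and of the 5 ATG8 genes 0 passed in edgeR's test, while DESeq2 called *Gabarapl1* among them. Among 15 cargo receptors *Optn* (0.25 ± 0.07) and *Tollip* (0.11 ± 0.03) rose. Of 18 lysosomal and TFEB family genes 4 rose and 0 fell, namely the hydrolases *Neu1* (0.22 ± 0.05) and *Gla* (0.23 ± 0.06) and the proton pump subunits *Atp6v0d1* (0.21 ± 0.05) and *Atp6v1h* (0.16 ± 0.05).

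Per length of transcript, the members at rest ranged over levels from *Sqstm1*, at 108 ± 13.4 RPKM (CPM divided by the exon length in kilobases, SD, n = 12), to *Foxo1*, at 1.68 ± 0.169 RPKM. Between them came *Bnip3* (95.7 RPKM), *Fbxo32* (69.1), *Trim63* (55.2), *Gabarapl1* (50.3), *Foxo4* (20.4), *Map1lc3b* (13.1), *Foxo3* (6.61) and *Ulk1* (5.54). The ranges of neighbours overlapped from *Sqstm1* down to *Gabarapl1*, and again between *Foxo3* and *Ulk1*. Within single libraries the order of neighbours held in 12 of 12 rested mice, except for *Trim63* over *Gabarapl1*, which held in 10. After exercise *Trim63* stood at 90.3 ± 15.7 RPKM and *Fbxo32* at 63.2 ± 14.6 RPKM (SD, n = 13), in reverse of their order at rest, and *Fbxo32* was above *Trim63* in 1 of the 13 mice. *Foxo1* had the lowest mean here too, at 3.95 ± 0.982 RPKM, and was below *Ulk1* in 12 of the 13 mice.

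The genes whose log2 CPM over the 25 libraries was most like that of *Trim63*, of 10017 genes compared, were *Flcn* (Pearson r 0.90, Spearman rho 0.86), *Tinagl1*, *Zbtb16*, *Mafk* and *Glul* (r 0.88, rho 0.88). Once each group's mean was subtracted, these 5 correlations fell to between 0.50 and 0.61. For *Foxo1* they were *Ppara* (r 0.95, rho 0.88), *Pdxk*, *Mcf2l*, *Fam117b* and *Fam107a* (r 0.94, rho 0.81), and between 0.56 and 0.66 after subtraction. For *Fbxo32* they included *Mtus1* (r 0.84, rho 0.81), *Cog7*, *Zfp839* and *Sh3rf2* (r 0.79, rho 0.75), and these stayed between 0.78 and 0.84 after subtraction. Without the 2 libraries farthest from the median of the first gene, *Mtus1* was at r 0.76, *Sh3rf2* at 0.71, *Zfp839* at 0.67 and *Cog7* at 0.62. The 5 genes named for *Trim63* were then between 0.84 and 0.89, and those for *Foxo1* between 0.94 and 0.96. These are descriptions over libraries that share the group differences, the differences between the sexes and the scaling.

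Variation within the groups was compared between members. The deviations from the group means gave a Pearson r of 0.76 for *Map1lc3b* and *Sqstm1* (rho 0.77) and of 0.75 for *Gabarapl1* and *Sqstm1* (rho 0.78), over 25 mice. *Fbxo32* went with *Foxo1* (r 0.64, rho 0.59) and *Ulk1* with *Foxo3* (r 0.66, rho 0.61), and *Map1lc3b* went with *Ulk1* (r 0.65, rho 0.59) and *Bnip3* (r 0.64, rho 0.69). *Trim63* and *Fbxo32* were at r 0.27 (rho 0.37). Of the 45 pairs 41 were above 0, with a median r of 0.45, and the lowest was *Foxo1* with *Gabarapl1* (r -0.29, rho -0.18). Between the members and the 10008 other genes compared, 54.0% of r values were above 0 and the median r was 0.04. Of the 10017 genes compared with each member, *Sqstm1* ranked 9 in likeness to *Gabarapl1* and 154 in likeness to *Map1lc3b*, and *Fbxo32* ranked 31 in likeness to *Foxo1*. Without the 2 libraries farthest from the median of the first gene, 37 of the 45 pairs were above 0 with a median r of 0.37. *Ulk1* with *Gabarapl1* went from r 0.39 to -0.10, *Foxo1* with *Gabarapl1* from -0.29 to -0.039, and *Trim63* with *Fbxo32* from 0.27 to 0.40. The lowest pair was then *Foxo3* with *Sqstm1*, at -0.34. The groups hold both sexes, so that a sex difference such as that of *Foxo3* remains in these deviations. These values are given without a test.

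Exons of 6 members overlap a gene on the other strand in GENCODE M21, and whether the counting used the strand is not stated. The largest such neighbour was *Zcchc14*, with 28662 reads in all libraries beside 82229 of *Map1lc3b*. The others were *Gm15943* (1288 reads) at *Fbxo32*, *Mrnip* (954) at *Sqstm1*, *1700101I11Rik* (700) at *Gabarapl1*, *Gm45507* (2) at *Bnip3* and *Gm20402* (0) at *Foxo1*. Some members also share words of 31 bases with genes elsewhere. *Bnip3* shares most with the lincRNA *AC160336.1* (1053 words), whose reads were not matched here, and 400 with the processed pseudogene *Gm16439* (2051 reads, 1.14% of the 179159 of *Bnip3*). *Map1lc3b* shares 317 with the processed pseudogene *Gm6055* (981 reads, 1.19% of its own) and 107 with *D1Ertd622e* (2449 reads, 2.98%). The counts of *Bnip3* and *Map1lc3b* are uncertain for these reasons. *Trim63*, *Foxo3*, *Foxo4* and *Ulk1* overlap no exon of another gene.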

How the data were processed

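Total RNA of the *soleus* of 25 mice was depleted of ribosomal RNA and sequenced by the authors with a stranded kit. The deposited values are whole-number counts per gene and library, without normalization, on mm10 and GENCODE M15. The submitters' processing notes name FastQC 0.11.5, STAR 2.5.3a and featureCounts 1.5.3, with no role or order. Strand setting of the counting is not given in the sources used here. Totals were between 22671457 and 37431801 counts, 0 count columns belonged to other samples, and 0 rows named no gene. A gene's exon length, deposited beside the counts and given in bases under another column, was used for RPKM.

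Genes were kept by filterByExpr (minimum count 10, minimum total 15), scaled by TMM and tested with edgeR 4.0.16 (glmQLFit, glmQLFTest; limma 3.58.1, R 4.3.3) with 1 mean per group. Sex was tested with 8 groups. P-values were adjusted by Benjamini-Hochberg over 16340 genes, threshold 0.05. Standard errors are the log2 difference divided by the square root of F. Log2 CPM for correlations used a prior count of 2 and genes with a mean of at least 2. The edgeR fit was tested on simulated data. The 67 pairs of replicates differed by more than sampling noise (lowest chi-square per gene 13.2), and 0 were identical.

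All 10 members are named. Of each pathway list, at most the 4 genes with the lowest adjusted p for exercise among those past the threshold are named, or the 1 with the lowest p. Some genes that this rule names are not reported here. *Akt1*, *Akt2*, *Pdk4*, *Klhl40*, *Kdr*, *Pecam1*, *Vwf* and the fiber genes were named after their values were seen. The members, gene lists, motifs and tests were chosen with earlier results of these data known. Alternatives were RLE scaling, total counts only, 2 other filters, DESeq2 1.42.0, sex or blocks of mouse numbers as additive terms, 8 groups, single sexes, and leaving out each mouse. Symbols were matched for 52403 of 52636 genes through GENCODE M21. Promoters were from RefSeq GRCm38.p6. DNA methylation was not analysed here.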

Additional observations from a re-analysis of the deposited data

Results flagged for a closer look

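One value stood far from the rest of its group. *Gabarapl1* in the exercised WT mouse 4 was at 179.6 CPM, while the other 6 mice of that group lay between 101 and 134 CPM, and its gap to the nearest of them took 0.585 of the range of the group. The same mouse held the highest *Fbxo32* and *Map1lc3b* of the exercised mice. Of 40 groups of values (10 genes in 4 groups) 1 was marked in this way, and chance marks about 1 group in 20.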

How the results depend on the processing

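The rises of *Foxo1*, *Trim63* and *Foxo3* passed the threshold in all 10 other settings and in all 25 fits without 1 mouse (log2 1.16 to 1.29, 0.67 to 0.74 and 0.45 to 0.54 in the latter), and *Gabarapl1* passed as well with DESeq2 (0.38, adjusted p 0.037) and in males (0.51, adjusted p 0.039), so that 3 or 4 members were called for exercise throughout. Over the other settings the adjusted p of *Gabarapl1* was between 0.037 and 0.88, and over the fits without 1 mouse between 0.0091 and 0.13. The genes called for exercise, 1699 here, were 927 without TMM, 966 in males and 512 in females. Those called for genotype, 44 here, were 29 without TMM, 81 with DESeq2, 72 with sex as a term, 97 with blocks of mouse numbers, 23 in males and 6 in females, and 0 members were called in each. The interaction called 0 genes in all of these settings. For sex, 1413 genes here became 865 to 1769 without 1 mouse (865 without WT mouse 20), and *Foxo3* was called each time. For sex by exercise, 9 genes became 19 with DESeq2 and 2 to 17 without 1 mouse (2, 3 and 17 without mD3AKO mice 6, 3 and 23, and 4 and 5 without WT mice 1 and 14).

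Signs turned in 24 estimates of members in the other settings, and 0 of them belonged to a called result. The cause was not tested. For exercise, *Foxo4* was -0.029 in females, and *Ulk1* was -0.0032 without TMM, -0.0067 with sex, -0.021 with blocks, -0.0078 with 8 groups and -0.11 in females. For genotype, *Trim63* was -0.033 without TMM and -0.15 in females, *Bnip3* -0.032 without TMM, -0.0023 with 8 groups and -0.026 in males, *Gabarapl1* -0.055 in females, and *Sqstm1* 0.0021 with RLE, 0.00090 with the filter at 1 CPM in 5 libraries, 0.0020 with DESeq2 and 0.040 in males. For the interaction, *Fbxo32* was 0.18 in females, *Trim63* 0.16, *Foxo1* 0.0052, *Bnip3* -0.19 and *Gabarapl1* 0.058 in males, *Bnip3* -0.049 and *Sqstm1* -0.013 with blocks, and *Sqstm1* -0.048 in females. Without 1 mouse, exercise of *Ulk1* ranged from -0.034 to 0.073. Genotype ranged from -0.018 to 0.057 for *Trim63*, -0.030 to 0.11 for *Foxo1*, -0.022 to 0.037 for *Bnip3* and -0.030 to 0.025 for *Sqstm1*. The interaction ranged from -0.045 to 0.071 for *Bnip3*, -0.14 to 0.14 for *Gabarapl1* and -0.043 to 0.070 for *Sqstm1*. Sex ranged from -0.025 to 0.046 for *Trim63*, -0.0062 to 0.043 for *Foxo4*, -0.036 to 0.064 for *Bnip3* and -0.11 to 0.069 for *Gabarapl1*. The TMM scaling moved the median of all genes for exercise by less than 0.1 on the log2 scale. A mouse number belongs to 1 mouse only. No paired analysis was possible because the groups share no replicate numbers. Blocks of mouse numbers are not a batch named in the labels.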

Other observations

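At rest, mD3AKO mouse 2 was the highest of 12 mice for 6 members (*Foxo3*, *Bnip3*, *Ulk1*, *Map1lc3b*, *Gabarapl1* and *Sqstm1*), and it was the highest for 10.9% of all tested genes. At rest, mD3AKO mouse 7 was the lowest for 6 members (*Fbxo32*, *Trim63*, *Foxo4*, *Ulk1*, *Map1lc3b* and *Gabarapl1*), and for 11.3% of all tested genes.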
